A study of Homo sapiens with 36 samples.

Results

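These results describe the step from day 2 to day 3 of cardiac differentiation in wild-type H1 cells, an established line of human embryonic stem cells. The step was read from 6 of the 36 RNA-seq libraries of the study, 3 of wild-type cells labelled day 2 and 3 of wild-type cells labelled day 3, and covers all 19772 genes that passed the filter on low counts. It is the step named as mesoderm to cardiac mesoderm, and the markers of those stages are read first. The study followed wild-type and PERK KO H1 cells at days 0, 1, 2, 3, 5 and 10, with 3 libraries per genotype and day. The 6 PERK KO libraries of days 2 and 3 are used below for 1 comparison. PERK, encoded by EIF2AK3, is a kinase of the endoplasmic reticulum membrane that slows translation under stress. How the gene was altered and which clones were used is not stated.

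The protocol given for the study names no difference in treatment between the genotypes. Cells left E8 stem cell medium for a chemically defined medium that held CHIR99021 from day 0 to day 1 and IWP2 from day 2 to day 5, and heparin was present from day 1. CHIR99021 inhibits the kinase GSK3 and so switches WNT signalling on. IWP2 blocks porcupine, the enzyme that fits WNT proteins with the lipid they need to leave the cell. Whether day 2 cells were taken before or after IWP2 was added is not stated. Nor is it stated that the 3 libraries of a day are separate cultures, so the p-values measure only the spread between these samples.

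In the embryo, cells that pass through the primitive streak under WNT and NODAL signals become mesoderm. The mesoderm that leaves the streak early passes through a short phase marked by MESP1 and moves forward to the heart fields, where WNT signalling must fall and BMP signalling guide the cells before heart muscle genes come on. Mesoderm that stays under WNT and FGF signals becomes presomitic, and there NOTCH genes oscillate in the segmentation clock. The switch from WNT activation to WNT inhibition in the dish follows this order.

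Levels are CPM (counts of a gene per 1 M counts of its library, after TMM scaling), given per library in replicate order or as mean ± SD over n = 3 libraries. Each log2 fold change compares day 3 with day 2, ± a standard error, and a gene is called higher or lower when its edgeR adjusted p is under 0.05. The 6 libraries held 17.4 to 21.1 M counts. In bulk RNA, fewer cells of a type and less RNA per cell cannot be told apart, so a change in level below is a change in the whole dish. At day 2 replicate 3 stood apart from the other pair, and at day 3 replicates 1 and 3 were farthest apart, with replicate 2 between them. The counts of day 2 replicates 1 and 2 differed by a chi-square per degree of freedom of 4.29, against 81.8 and 76.6 for replicate 3 with either of them. Day 3 values were 26.5 for replicates 1 and 2, 95.6 for 1 and 3, and 34.5 for 2 and 3. For the PERK KO libraries of days 2 and 3, which enter the same estimate of the spread, values ran from 3.58 to 11.7. The mean effective transcript length of the wild-type libraries was 2665, 2610 and 2400 nt at day 2 and 2798, 2659 and 2507 nt at day 3. It was shortest in both replicate 3 libraries.

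The libraries were also placed on the wild-type time axis, where 0 is the mean of day 1 and 1 the mean of day 5, over the 6565 genes with a gap of 1 or more on the log2 CPM scale between days 1 and 5. Day 2 libraries lay at 0.371, 0.367 and 0.468, and day 3 libraries at 0.740, 0.774 and 0.862. Replicate 3 lay farthest along in each group, and the days did not overlap. With genes differing by at least 2 on the log2 scale, day 2 libraries lay at 0.344, 0.342 and 0.386, a smaller lead. Both replicate 3 libraries also had the shortest transcript length, and its part in their position was not tested.

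Of the 19772 genes, 6441 (32.6%) were called, 3308 (16.7%) higher and 3133 (15.8%) lower at day 3. At least 2-fold changes were called for 3517 genes (17.8%), 1935 of them higher and 1582 lower. For 7138 genes (36.1%) the 3 libraries of each day did not overlap. Without both replicate 3 libraries, an alternative chosen after the data were seen, 5557 genes were called, 2866 higher and 2691 lower, and 5285 of these were calls in the same direction among the 6441. A fit to the 6 compared libraries alone, with the spread taken from them only, called 3633 genes. Of the 6441 calls it kept 3603 in the same direction (55.9%). In 35 lists of known genes, 690 of 732 listed genes were tested, and each list is set below against the shares of all genes just given. The median log2 fold change of all genes tested was 0.02.

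**Figure D1:**
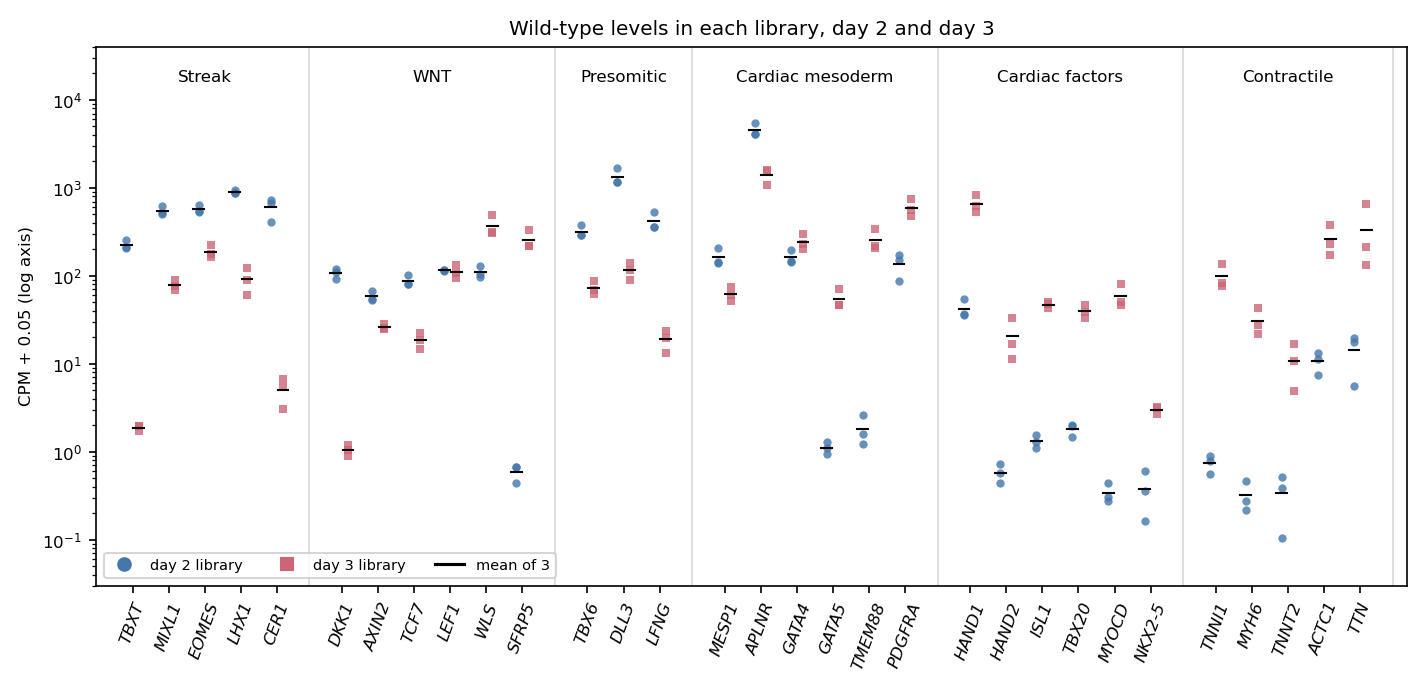
Level of 31 genes in each wild-type library (CPM + 0.05, log axis), circles for day 2, squares for day 3, black bars for the mean of 3. Streak and presomitic genes were lower at day 3, and cardiac transcription factors and contractile genes were higher. LEF1 libraries of both days overlap.

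Most primitive streak genes fell. Of 18 listed, all were tested, 15 were lower, 2 higher and FOXA2 was not called, with a median log2 fold change of -2.15. TBXT, brachyury, the T-box factor that defines the streak and nascent mesoderm (ENSG00000164458.9, GRCh38 chromosome 6, 166157656 to 166168700, minus strand), was at 211, 209 and 258 CPM at day 2 and at 1.89, 1.92 and 1.68 CPM at day 3. No day 3 library came near a day 2 library, and the log2 fold change was -6.94 ± 0.30 (edgeR adjusted p = 2.98e-16). CER1, a secreted inhibitor of NODAL, BMP and WNT made by anterior mesendoderm, went from 671, 720.3 and 412 CPM to 6.62, 5.39 and 2.97 CPM, and replicate 3 was lowest on both days. Its log2 fold change was -6.90 ± 0.35. GSC, a homeobox gene of the organizer, fell from 65.5 ± 14.3 to 2.16 ± 0.382 CPM, and CDX2 and EVX1, homeobox genes of the posterior streak, had log2 fold changes of -4.58 ± 0.32 and -4.25 ± 0.33.

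Other streak factors fell but stayed well above 0. MIXL1, a homeobox gene of mesendoderm, was at 522, 511 and 615 CPM at day 2 and at 69.4, 88.6 and 77.1 CPM at day 3. EOMES, a T-box factor that acts upstream of MESP1, went from 542, 531 and 639 CPM to 165, 224 and 175 CPM. LHX1, a LIM homeobox gene of the organizer and lateral mesoderm, fell from 895 ± 49.8 to 91.1 ± 30.3 CPM. The log2 fold changes of these genes were -2.81 ± 0.17, -1.60 ± 0.16 and -3.30 ± 0.27, and the days did not overlap for any of them. The list members that rose were the ligand genes NODAL and FGF8. NODAL was at 13.0, 11.1 and 15.9 CPM at day 2 and 27.5, 22.6 and 61.3 CPM at day 3, with day 3 replicate 3 well above the rest (1.47 ± 0.29). FGF8 rose from 1.64 ± 0.429 to 7.70 ± 1.07 CPM.

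Genes that WNT signalling raises fell with them. Of 17 WNT targets and feedback genes, 11 were lower, 3 higher and 3 not called, with a median of -1.15. DKK1, a secreted antagonist that blocks the LRP co-receptors, was at 111, 119 and 91.0 CPM at day 2 and at 0.990, 1.14 and 0.841 CPM at day 3 (-6.74 ± 0.38). DKK4, its relative, had 619 counts at day 2 and 3 at day 3, and its day 2 to day 3 ratio was 222 (95% counting interval 75.6 to 1079.9). AXIN2, the scaffold of the complex that destroys beta-catenin and a common readout of the pathway, was at 54.4, 53.1 and 67.5 CPM and then at 25, 25.7 and 28.3 CPM. That is a smaller fall than for DKK1, with -1.15 ± 0.13. TCF7, a DNA-binding partner of beta-catenin, fell by 2.25 on the log2 scale, NKD1, an inhibitor of dishevelled, by 1.73, CCND1, a G1 cyclin, by 1.71, and MYC by 1.51. At day 1 AXIN2 had been at 455, 453 and 443 CPM and DKK4 at 330, 284 and 334 CPM. Their larger drop in CPM thus came between days 1 and 2. As a ratio the larger fall of DKK4 was that from day 2 to day 3. It went from 11.7, 11.6 and 10.5 CPM to 0.0900, 0 and 0.0561 CPM. NKD1 (454, 483 and 472 CPM) and CCND1 (302, 325 and 340 CPM) had also been higher at day 1, while MYC had been lower (30.4, 31.3 and 32.8 CPM). LEF1, another beta-catenin partner, was at 114, 115 and 117 CPM at day 2 and 107, 94.6 and 133 CPM at day 3, and was not called (edgeR adjusted p = 0.893).

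The targets that rose were receptors and ligases at the cell surface. LGR5, the R-spondin receptor, went from 39.9 ± 11.0 to 90.8 ± 24.9 CPM, RNF43, a ligase that removes frizzled receptors, from 2.47 ± 0.333 to 7.34 ± 0.637 CPM, and TNFRSF19 from 1.26 ± 0.221 to 15.5 ± 5.08 CPM.

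Ligands, secretion factors and receptors of the pathway were split, with 16 of 41 tested members lower, 15 higher and a median of -0.04. Ligands with known roles at the streak were among those that fell. RSPO3, an R-spondin that strengthens WNT signals, was at 97.0, 92.0 and 75.3 CPM at day 2 and 5.90, 3.06 and 5.33 CPM at day 3 (-4.20 ± 0.30). WNT3A went from 23.7 ± 7.07 to 2.02 ± 0.661 CPM, WNT8A from 115 ± 10.1 to 10.4 ± 2.10, WNT3 from 123 ± 14.9 to 39.5 ± 4.47, and WNT5A, a ligand that mostly acts outside the beta-catenin route, from 529 ± 129 to 161 ± 25.4. WNT11, a ligand of the heart field that acts outside that route, rose from 2.17 ± 0.146 to 13.3 ± 4.47 CPM. PORCN, the target of IWP2, was at 14.4, 17.4 and 20.9 CPM at day 2 and 10.2, 13.7 and 15.1 CPM at day 3. Its libraries overlapped between days, and its call (-0.44 ± 0.16, edgeR adjusted p = 0.032) was lost without day 2 replicate 2 (edgeR adjusted p = 0.0583), day 2 replicate 3 (0.158), day 3 replicate 1 (0.214) or both replicate 3 libraries (0.0826).

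WLS, which carries WNT proteins to the cell surface, rose from 111 ± 16.7 to 369 ± 101 CPM. Among antagonists, SFRP5, a decoy receptor made in the foregut and heart field (ENSG00000120057.4, GRCh38 chromosome 10, 97766751 to 97771952, minus strand), was at 0.390, 0.612 and 0.623 CPM at day 2 and at 220.4, 218 and 332 CPM at day 3, with a log2 fold change of 8.87 ± 0.34. SFRP1 rose from 168 ± 15.9 to 331 ± 64.1 CPM while SFRP2 fell from 156 ± 24.4 to 20.5 ± 1.92 CPM. Frizzled receptors changed in both directions: FZD8 rose from 10.5 ± 1.39 to 78.9 ± 17.2 CPM and FZD4 from 37.8 ± 1.18 to 102 ± 18.2, and FZD7 fell from 942 ± 111 to 449 ± 66.9.

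The promoters of SP5 and MIXL1, which fell with the WNT and streak genes, and of HAND2 and TNNT2, which rose with the heart genes below, are printed because they hold the core letters of a motif known from such genes. RefSeq promoters (GRCh38.p14, 300 bases, from 250 before to 50 after the start) were matched for 511 of 730 genes (the list members and the genes of the naming rule). The motif letters were CTTTGAT for TCF/LEF, the partners of beta-catenin, and AGATAA for GATA factors, searched on both strands. The capitals mark the TCF/LEF letters in SP5 and MIXL1 and the GATA letters in HAND2 and TNNT2, in the orientation of the gene, so AGATAA on the other strand appears as TTATCT. SP5, a zinc finger gene directly induced by WNT, fell from 64.2, 64.1 and 97.9 CPM to 23.2, 24.5 and 31.9 CPM. Its window is chr2:170715087-170715386, plus strand, with the match 109 bases before the start, and that of MIXL1 is chr1:226223414-226223713, plus strand, with the match 76 bases before it. Windows of HAND2 (chr4:173530180-173530479, minus strand, match 172 bases before the start) and TNNT2 (chr1:201377631-201377930, minus strand, 225 before) hold the GATA letters.
SP5: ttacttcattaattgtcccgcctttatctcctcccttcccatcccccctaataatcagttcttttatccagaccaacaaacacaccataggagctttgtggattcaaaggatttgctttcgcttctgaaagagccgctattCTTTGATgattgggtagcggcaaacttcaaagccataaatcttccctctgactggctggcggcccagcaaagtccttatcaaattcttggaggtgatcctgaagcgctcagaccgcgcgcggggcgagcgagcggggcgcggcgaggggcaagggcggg
MIXL1: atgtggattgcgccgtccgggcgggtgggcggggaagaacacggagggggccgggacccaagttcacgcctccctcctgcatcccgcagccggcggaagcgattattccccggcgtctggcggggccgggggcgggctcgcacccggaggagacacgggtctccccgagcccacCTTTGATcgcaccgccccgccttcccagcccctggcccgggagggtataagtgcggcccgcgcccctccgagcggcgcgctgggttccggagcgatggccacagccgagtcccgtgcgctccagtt
HAND2: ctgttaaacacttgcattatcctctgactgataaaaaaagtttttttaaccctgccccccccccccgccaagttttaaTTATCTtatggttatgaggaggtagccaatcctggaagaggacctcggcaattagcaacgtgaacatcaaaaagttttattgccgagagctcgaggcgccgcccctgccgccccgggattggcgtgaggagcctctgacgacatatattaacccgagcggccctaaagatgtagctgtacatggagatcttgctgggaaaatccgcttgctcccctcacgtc
TNNT2: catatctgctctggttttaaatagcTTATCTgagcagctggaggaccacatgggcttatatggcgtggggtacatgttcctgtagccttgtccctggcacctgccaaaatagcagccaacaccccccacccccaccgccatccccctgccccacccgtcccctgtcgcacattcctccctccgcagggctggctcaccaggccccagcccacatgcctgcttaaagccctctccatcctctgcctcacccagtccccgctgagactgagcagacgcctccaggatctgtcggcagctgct
Over all 27305 RefSeq promoters, 2.64% held the TCF/LEF letters and 10.5% the GATA letters. The TCF/LEF letters were in 2 of 12 matched streak promoters (MIXL1 and SP5) and in 1 of 9 matched WNT target promoters (SP5), and also in 1 of 13 cardiac transcription factor promoters (HAND1) and 1 of 18 contractile ones (MYH6). The GATA letters were in 2 of 13 matched cardiac transcription factor promoters (HAND2 and ISL1) and in 4 of 18 matched contractile promoters (TNNT2, TNNI3, MYBPC3 and MYOM1), and also in 3 of 12 streak promoters (CDX2, SP5 and FST) and 2 of 9 WNT target promoters (SP5 and TNFRSF19). Neither motif was in only the falling or only the rising lists. The letters TGGGAA of RBPJ, the DNA-binding partner of NOTCH, were in 24.3% of all promoters and in 5 of 16 matched NOTCH promoters. The T-box letters GGTGTGA were in 3.43% of all promoters and in 1 of 9 matched presomitic promoters (RIPPLY1). A match only describes letters in this window.

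Many genes of presomitic mesoderm fell steeply. Of 13 tested members of 15 listed, 7 were lower, 3 higher and the median was -2.13. DLL3, a NOTCH ligand that acts inside the cell and is needed for segmentation (ENSG00000090932.10, GRCh38 chromosome 19, 39498895 to 39508481, plus strand), was at 1176, 1159.8 and 1668 CPM at day 2 and at 89.8, 142 and 115 CPM at day 3 (-3.53 ± 0.19). LFNG, the glycosyltransferase that makes NOTCH signalling oscillate, went from 356, 361 and 529 CPM to 13.3, 23.7 and 19.9 CPM (-4.45 ± 0.24). Replicate 3 was highest for both genes at day 2, and the days did not overlap. TBX6, the T-box factor of presomitic mesoderm, fell from 319 ± 48.0 to 72.7 ± 13.3 CPM, HES7, a repressor of the clock, from 23 ± 4.51 to 0.712 ± 0.216, RIPPLY2 from 41.5 ± 7.92 to 2.06 ± 1.01, and MSGN1 from 8.06 ± 0.564 to 0.0674 ± 0.0594. The members called higher, UNCX, RIPPLY1 and MEOX1, genes of forming somites, had means of 1.18, 1.94 and 0.353 CPM at day 3. The call of MEOX1 (edgeR adjusted p = 0.0307) was lost without day 2 replicate 1 (0.118), day 2 replicate 2 (0.0723), day 3 replicate 3 (0.205) or both replicate 3 libraries (0.156).

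The NOTCH list held some of the same genes and changed in both directions, with 9 of 20 tested members lower, 6 higher and a median of -0.36. DLL1, a ligand, fell from 311 ± 51.0 to 36.4 ± 7.68 CPM and the receptor NOTCH1 from 372 ± 56.8 to 97.3 ± 12.1. JAG1, the other main ligand type, rose from 165 ± 11.6 to 352 ± 57.4 CPM, and the receptor NOTCH3 from 163 ± 33.4 to 279.8 ± 50.3. Of the target genes, HES1 fell from 23.1 ± 3.01 to 13.3 ± 1.39 CPM, while HEY1 was at 1.17, 1.5 and 1.77 CPM at day 2 and at 31.9, 22.7 and 52.4 CPM at day 3. The log2 fold change of HEY1 was 4.58 ± 0.38. That of HES1 (-0.80 ± 0.26, edgeR adjusted p = 0.0159) lost its call without day 3 replicate 1 (0.0633) and without both replicate 3 libraries (0.0772).

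Genes of cardiac mesoderm moved apart. Of 16 listed and tested, 6 were higher, 4 lower and 6 not called, with a median of -0.10. MESP1, the basic helix-loop-helix factor that marks the first cardiac progenitors, was at 144, 139 and 205 CPM at day 2 and at 52.2, 73.8 and 59.7 CPM at day 3 (-1.39 ± 0.30, edgeR adjusted p = 0.00041). Its neighbour MESP2 fell from 244 ± 41.4 to 61.5 ± 19.3 CPM. APLNR, the apelin receptor of migrating mesoderm (ENSG00000134817.10, GRCh38 chromosome 11, 57233577 to 57237314, minus strand), was at 4135, 4064 and 5468 CPM and then at 1067, 1594 and 1546 CPM, and had the largest fall in CPM of all called genes (-1.70 ± 0.20).

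Genes of a later stage rose. TMEM88, a membrane protein of heart precursors that restrains WNT signalling, was at 1.17, 1.56 and 2.55 CPM at day 2 and at 209.9, 218 and 337 CPM at day 3 (7.17 ± 0.30). GATA5, a zinc finger factor of the heart, rose from 1.07 ± 0.177 to 54.5 ± 14.4 CPM and PDGFRA, the receptor that marks cardiac mesoderm, from 137 ± 44.0 to 595 ± 135. SMARCD3, a heart subunit of the SWI/SNF complex, rose from 20.0 ± 4.37 to 65.9 ± 17.7 CPM. The factors GATA4 and GATA6 and the receptor KDR were present on both days and not called, although their days did not overlap. GATA4 was at 147, 144 and 199 CPM and 199.5, 231 and 296 CPM (edgeR adjusted p = 0.0668), GATA6 at 375, 349 and 433 and 270.5, 309.7 and 331 CPM (0.249). GATA4 was called without day 2 replicate 3 (0.0353) or day 3 replicate 1 (0.0441). KDR, a receptor of mesoderm and endothelium, was at 387, 391 and 326 and 262, 253 and 284 CPM (0.136).

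Cardiac transcription factors came on. Of 22 tested members of 23 listed, 15 were higher, 1 was lower and 6 were not called, with a median of 2.74. HAND1, of the first heart field (ENSG00000113196.2, GRCh38 chromosome 5, 154474972 to 154478264, minus strand), was at 35.8, 37.1 and 54.1 CPM at day 2 and at 527, 615 and 830.3 CPM at day 3 (3.96 ± 0.39). It had the highest level of the list at day 3 also per transcript length, at 583 ± 64.7 TPM, the length-scaled unit. TBX2, a T-box factor of slow-conducting heart muscle, had 1 count in all day 2 libraries and was at 41.8, 36 and 55.6 CPM at day 3, a count ratio of 2429.5 (95% counting interval 436 to 95995). TBX5, of the first heart field, had no count at day 2 and was at 3.20, 2.80 and 7.07 CPM at day 3, at least 77.7-fold higher against a floor of 3 counts over the group.

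ISL1, of the second heart field, was at 1.23, 1.06 and 1.51 CPM at day 2 and at 47.3, 43.4 and 50.6 CPM at day 3 (5.21 ± 0.42). HAND2, of the same field, went from 0.390, 0.668 and 0.519 CPM to 16.6, 11.3 and 33.5 CPM, with the day 3 libraries spread over a wide range. MYOCD, myocardin, the coactivator that turns on heart and smooth muscle genes, went from 0.223, 0.390 and 0.260 CPM to 80.5, 50.7 and 46.9 CPM (7.64 ± 0.50), highest in replicate 1. TBX20 rose from 1.75 ± 0.301 to 39.7 ± 7.12 CPM. NKX2-5, the homeobox factor of committed heart cells, was called higher (3.15 ± 0.53) but was still at 2.61, 3.16 and 3.09 CPM at day 3, and MEF2C was at 0.937 ± 0.363 CPM. IRX3 was the member that fell, from 358 ± 75 to 204 ± 30.2 CPM. TBX3 and HEY2 were not called (65.6 ± 6.78 and 54.6 ± 4.63 CPM for TBX3, 19.2 ± 2.51 and 23.5 ± 1.24 CPM for HEY2). The call of MEF2C (edgeR adjusted p = 0.00927) was lost without day 2 replicate 1 (0.052), day 2 replicate 3 (0.0658) or both replicate 3 libraries (0.13).

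Contractile genes rose, many of them from under 1 CPM. Of 26 tested, 17 were higher and 0 lower by edgeR, with a median of 3.12. In the lower direction 0 had an unadjusted p under 0.05 and 0 were called by DESeq2. UNC45B, a chaperone for myosin, had no count at day 2 and was at 16.7, 12.8 and 23.2 CPM at day 3, at least 319-fold higher against a floor of 3 counts over the group. SMYD1, a methyltransferase of the sarcomere, had 1 count at day 2 and was at 9.32, 6.48 and 13.2 CPM at day 3, a count ratio of 528 (95% counting interval 94.3 to 20879). TNNI1, the troponin I of slow and fetal muscle, was at 0.502, 0.835 and 0.727 CPM at day 2 and at 83.9, 77.5 and 137 CPM at day 3 (7.16 ± 0.46). All of its day 3 libraries stood above all of its day 2 libraries, with replicate 3 highest.

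ACTC1, cardiac actin, went from 7.47, 11.2 and 13.2 CPM to 229.9, 172 and 382 CPM (4.61 ± 0.30), and TNNT2, cardiac troponin T, from 0.0558, 0.334 and 0.468 CPM to 10.7, 4.87 and 16.7 CPM (5.18 ± 0.53). MYH6, the atrial myosin heavy chain, rose from 0.269 ± 0.130 to 30.6 ± 10.8 CPM and the myosin light chains MYL4 and MYL7 from 0.645 ± 0.426 to 92.1 ± 51.0 and from 2.25 ± 0.575 to 40.8 ± 16.9 CPM. TTN, titin, whose transcript is very long, was at 17.6, 19.4 and 5.51 CPM at day 2 and at 658, 212 and 133 CPM at day 3. Its lowest library was replicate 3 on both days, the library with the shortest counted transcripts, and the part of that length in the TTN values was not tested. TPM1, a tropomyosin that many cells make, rose from 86.0 ± 7.79 to 312 ± 65.6 CPM. MYH7, the ventricular myosin, was still at 0.217 ± 0.0577 CPM at day 3. ACTN2, TNNI3 and ACTA2 were not called (1.57 ± 0.168, 13.3 ± 2.93 and 3.33 ± 0.616 CPM at day 3). Without both replicate 3 libraries 15 of the 26 contractile genes were called higher, and the calls of MYBPC3 and MYH7 (edgeR adjusted p = 0.00954 and 0.0101) were lost, with 0.0889 and 0.0515.

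Among ion channels and peptides of the heart, 5 of 16 rose and 5 fell. NPPB, the natriuretic peptide B gene, had 3 counts at day 2 and was at 13.9, 13.1 and 14.5 CPM at day 3, a count ratio of 254 (95% counting interval 86.5 to 1232). KCNH2, a potassium channel, rose from 12.2 ± 4.67 to 72.0 ± 24.6 CPM and HCN4, the pacemaker channel, from 13.2 ± 1.31 to 25.9 ± 8.71 (edgeR adjusted p = 0.00304, and 0.0677 without both replicate 3 libraries). SLC8A1, the sodium-calcium exchanger, fell from 2.30 ± 1.18 to 0.302 ± 0.0189 CPM. GJA1, ATP2A2 and RYR2 were not called. The number of lower calls fell to 3 without day 3 replicate 1, without day 3 replicate 2, and without both replicate 3 libraries.

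**Figure D2:**
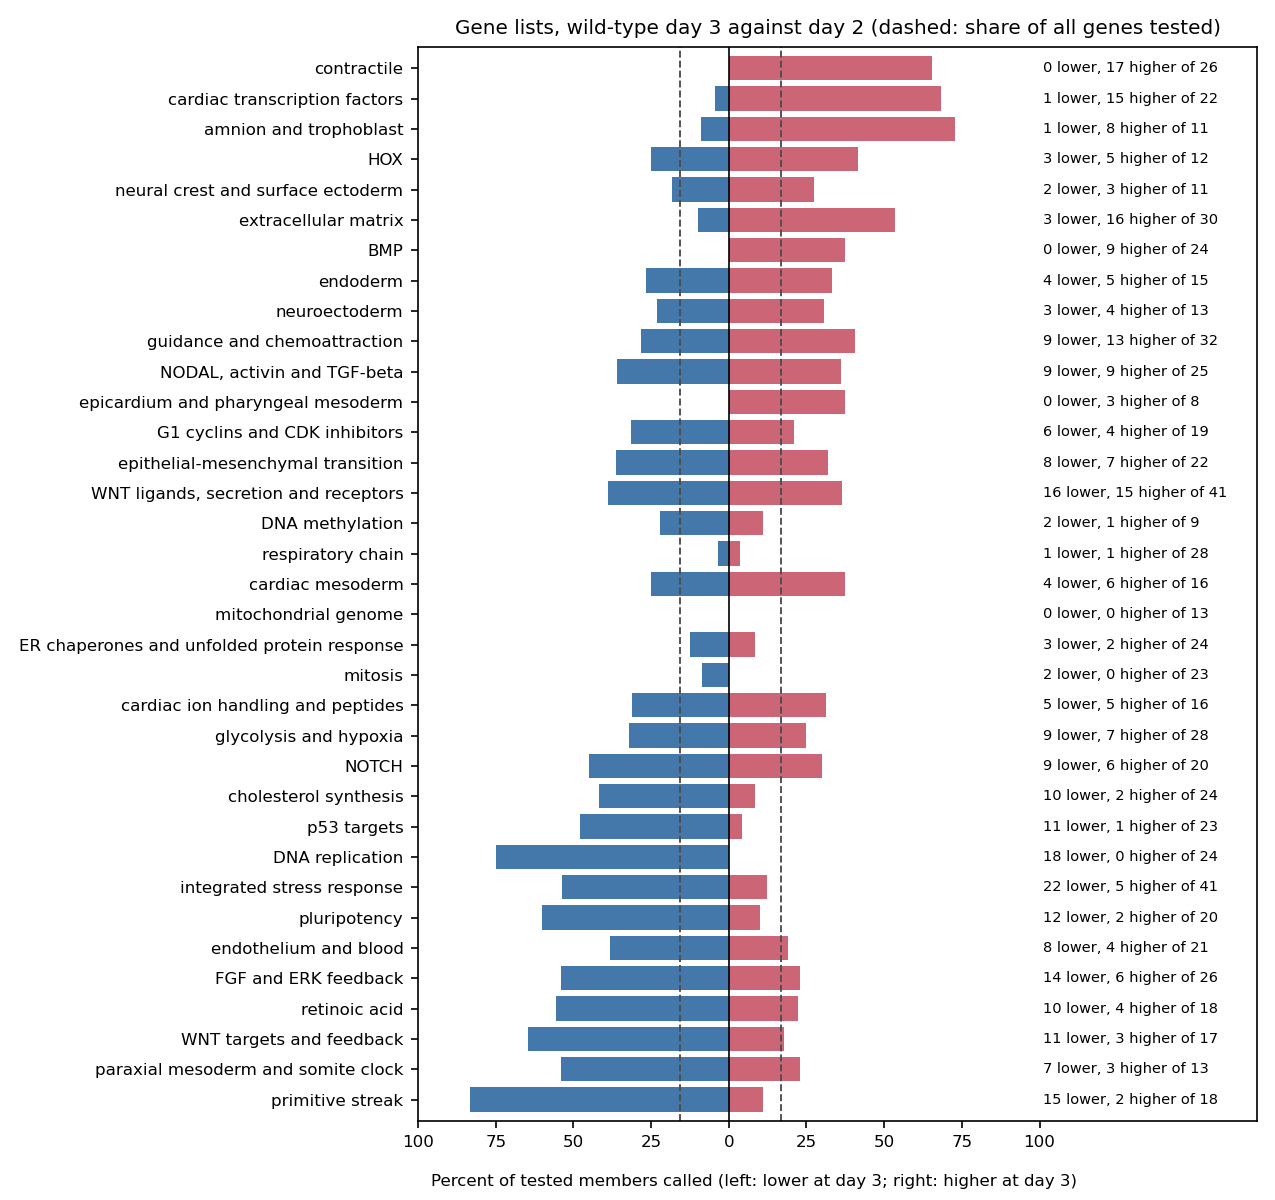
Percent of the tested members of 35 gene lists called lower (left) or higher (right) at day 3, ordered by median log2 fold change, with the counts at the right edge. Dashed lines mark the shares over all genes tested, 15.8% lower and 16.7% higher, and the lists at the ends are the primitive streak (15 of 18 lower) and contractile genes (17 of 26 higher).

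BMP genes were the signalling list without a lower call. Of 24 tested, 9 were higher and 15 not called, with a median of 0.55. In the lower direction 1 had an unadjusted p under 0.05, MSX1 (98.1 ± 21.0 and 63.9 ± 6.67 CPM, edgeR adjusted p = 0.0519). DESeq2 called 1 lower, as did edgeR without day 2 replicate 1 or without day 3 replicate 3. BMP4, a ligand that patterns lateral mesoderm, was at 97.7, 110.1 and 141 CPM at day 2 and at 355, 367 and 399.8 CPM at day 3 (1.68 ± 0.19). BMP5 rose from 0.349 ± 0.177 to 13.0 ± 8.32 CPM, highest in day 3 replicate 1, and BMP2 was not called (295 ± 20.1 and 262 ± 30.4 CPM). BMP10, a ligand of the embryonic heart that was among the 20 largest rises (ENSG00000163217.1, GRCh38 chromosome 2, 68865481 to 68871517, minus strand), had no count in the day 2 libraries and was at 23.1, 22.9 and 19.2 CPM at day 3, at least 402-fold higher against a floor of 3 counts over the group.

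Regulators outside the cell differed. BMPER, which binds BMPs, was at 46.5, 41.0 and 44.0 CPM at day 2 and at 459, 473 and 463 CPM at day 3 (3.41 ± 0.18), and CHRD, chordin, went from 5.00 ± 0.378 to 41.7 ± 4.37 CPM. NOG, noggin, and GREM1, gremlin, were not called (0.755 ± 0.0479 and 1.28 ± 0.871 CPM at day 3), and FST, follistatin, which also binds activin and is on other lists, fell from 13.4 ± 0.85 to 3.76 ± 0.315 CPM, as CER1 did. Target genes differed: SMAD6, a feedback inhibitor, went from 88.9, 91.2 and 124 CPM to 401, 432 and 507 CPM (2.14 ± 0.19), and MSX2 and ID2 rose to 52.9 ± 11.0 and 112 ± 16.9 CPM. ID1 and ID3 were not called, at 236 ± 65.9 and 258 ± 49.4 CPM for ID1 and 438 ± 107 and 379 ± 78.3 CPM for ID3.

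NODAL, activin and TGF-beta genes split evenly, 9 of 25 higher and 9 lower, with a median of 0.19. Those that fell include co-receptors and extracellular antagonists. TDGF1, the co-receptor for NODAL, went from 229.9, 228 and 218 CPM to 41.7, 48.7 and 41.6 CPM (-2.36 ± 0.17), LEFTY1 from 29.3 ± 6.02 to 0.768 ± 0.134 and LEFTY2 from 29.2 ± 2.80 to 6.99 ± 2.10. INHBB, a subunit of activin B, was at 30.2, 32.0 and 34.1 CPM at day 2 and at 0.315, 0.725 and 0.393 CPM at day 3 (-6.06 ± 0.37). CFC1, a co-receptor related to TDGF1 and among the largest CPM rises, went the other way, from 7.25, 7.35 and 10.9 CPM to 845, 969 and 1199.9 CPM, although its near-identical copy CFC1B could take a part of its reads. SMAD3, a transducer, rose from 30.4 ± 5.08 to 133 ± 21.1 CPM, and TGFB2, a ligand of the developing heart, rose from 0.111 ± 0.147 to 6.08 ± 2.65.

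FGF signalling genes were mostly lower, with 14 of 26 lower, 6 higher and a median of -0.74. Among ligands, FGF17 went from 137, 138 and 185 CPM to 4.05, 6.16 and 5.61 CPM (-4.87 ± 0.29), FGF4 from 17.2 ± 0.713 to 0.556 ± 0.148 and FGF19 from 9.79 ± 1.73 to 0.234 ± 0.159. FGF10, a ligand of the second heart field, was at 0.781, 0.501 and 0.364 CPM at day 2 and at 36.5, 18.4 and 15.5 CPM at day 3 (5.41 ± 0.43), highest in replicate 1. Several genes that ERK signalling induces fell: ETV4 went from 91.5 ± 23.1 to 6.17 ± 1.63 CPM, SPRY4 from 467 ± 30.7 to 107 ± 17.5, IL17RD from 668 ± 78.8 to 105 ± 20.9 and DUSP6 from 164 ± 15.8 to 64.9 ± 3.80. DUSP5 rose from 55.9 ± 11.3 to 169 ± 28.5 CPM. Of the receptors, FGFR3 rose from 58.7 ± 11.2 to 206 ± 28.9 CPM and FGFR1 was not called (509 ± 98.6 and 548 ± 98.7 CPM).

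Retinoic acid is made from vitamin A and sets the posterior part of the heart field. Of 18 genes of its synthesis, breakdown and receptors, 10 were lower, 4 higher and the median was -0.87. CYP26A1, which degrades retinoic acid, went from 442, 434 and 482 CPM to 66.7, 123 and 58.8 CPM (-2.45 ± 0.33), and RARG, the receptor of early mesoderm, from 201 ± 35.0 to 81.5 ± 9.67. RARB, a receptor gene that retinoic acid itself induces, had 2 counts at day 2 and was at 24.4, 17.9 and 19.7 CPM at day 3, a ratio of 575 (95% counting interval 159 to 4754). Synthesis genes went both ways. RDH10 and ALDH1A2 rose from 5.89 ± 0.939 to 15 ± 3.37 and from 0.613 ± 0.147 to 2.94 ± 0.406 CPM, while ALDH1A3 fell from 4.94 ± 0.422 to 0.817 ± 0.174 and ALDH1A1 from 0.677 ± 0.228 to 0.0150 ± 0.0260 CPM. Of 39 HOX genes only 12 passed the filter. HOXB2, HOXB3, HOXB4, HOXB5 and HOXB6 were higher, with HOXB2 at 14.7, 16.6 and 25.8 CPM at day 2 and 59.1, 57.2 and 102 CPM at day 3. HOXB13 and HOXD1 were among the lower ones, from means of 0.545 and 0.540 CPM, and HOXB1 and HOXB9 were not called. HOXD1 (edgeR adjusted p = 0.0146) was not called by DESeq2 (0.0597), nor by edgeR without day 2 replicate 3 (0.0564), day 3 replicate 2 (0.0654), day 3 replicate 3 (0.0534) or both replicate 3 libraries (0.148).

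Many matrix genes rose. Of 30 tested, 16 were higher and 3 lower, with a median of 0.65. COL1A1, a chain of type I collagen, was at 42.9, 46.2 and 66.9 CPM at day 2 and at 807, 684 and 1245 CPM at day 3 (4.13 ± 0.23). COL2A1 went from 8.53, 8.57 and 11.5 CPM to 221, 219.7 and 359 CPM (4.80 ± 0.22), and HAPLN1, a link protein of the hyaluronan matrix of the early heart, from 23.4 ± 7.01 to 263 ± 88.5. FBN2, a fibrillin, rose from 1971 ± 94.9 to 3384 ± 331 CPM. HAS2, which makes hyaluronan, was at 524, 549 and 176 CPM at day 2 and 1283, 904 and 422 CPM at day 3, and VCAN, versican, at 194, 202 and 45.8 and 702, 297 and 179 CPM. For both genes replicate 3 was the lowest library of each day and the days overlapped. Their calls (edgeR adjusted p = 0.0204 and 0.00894) were lost without day 2 replicate 3 (0.145 and 0.0705) or day 3 replicate 1 (0.189 and 0.22). LOX, which cross-links collagen, fell from 94.0 ± 13.9 to 2.62 ± 0.591 CPM and COL6A1 from 2312 ± 258 to 983 ± 167.

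Genes of the epithelial-mesenchymal transition moved both ways, 7 of 22 higher and 8 lower. VIM, vimentin, the filament of mesenchymal cells, was at 370.1, 458 and 539 CPM at day 2 and at 3597, 3015 and 4736 CPM at day 3 (3.05 ± 0.15), the largest rise in CPM of all called genes. FN1, fibronectin, rose from 804 ± 22.9 to 2674 ± 289.7 CPM. SNAI1, the repressor of CDH1 that drives cells out of the streak, went from 305, 353 and 450.3 CPM to 34.7, 52.0 and 47.0 CPM (-3.05 ± 0.17), and CDH1 itself fell from 109 ± 15.9 to 27.6 ± 4.36. CDH2 fell as well, from 290.2 ± 42.8 to 127 ± 8.60 CPM. The keratins KRT8 and KRT19, which are on no list but among the 10 largest rises in CPM, went from 587 ± 178 to 2117 ± 649.8 and from 157 ± 71.9 to 1167 ± 334 CPM.

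Guidance receptors and ligands changed often, 13 of 32 higher and 9 lower. EPHB2, an ephrin receptor, was at 21.8, 21.2 and 27.6 CPM at day 2 and at 329, 395 and 547 CPM at day 3 (4.17 ± 0.19). NRP2, a receptor for semaphorins and VEGF, went from 61.1, 68.1 and 57.5 CPM to 486, 491 and 529 CPM (3.01 ± 0.27), and UNC5B, a netrin receptor, rose from 35.2 ± 6.30 to 188 ± 47.8. The ligand NTN1, netrin, fell from 90.2 ± 16.6 to 4.46 ± 1.85 CPM, and CXCR4, the chemokine receptor, from 45.7 ± 6.05 to 14.6 ± 5.29.

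Pluripotency genes went on falling: 12 of 20 were lower, 2 higher, with a median of -0.61. POU5F1, the core factor OCT4, was at 762, 743 and 1183 CPM at day 2 and at 156, 198 and 259.8 CPM at day 3 (-2.13 ± 0.24). DNMT3B, the de novo DNA methyltransferase of stem cells, fell from 515 ± 93.0 to 203 ± 40.8 CPM while DNMT3A rose from 109 ± 6.57 to 287 ± 36.5. NANOG was at 6.87 ± 2.87 and 1.77 ± 0.419 CPM. SOX2 went the other way, at 3.01, 7.85 and 8.05 CPM at day 2 and 9.99, 9.12 and 8.86 CPM at day 3. It was not called (edgeR adjusted p = 0.0547), but was called higher by DESeq2 (adjusted p = 0.037). By edgeR it was called higher without day 2 replicate 2 (adjusted p = 0.0254), day 2 replicate 3 (0.0194) or both replicate 3 libraries (0.0218). PODXL rose from 97.7 ± 9.81 to 211 ± 29.2 CPM.

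Lists of other cell types that the dish could hold were also read. Of 21 tested endothelial and blood genes 8 were lower and 4 higher, with summed levels of 546 to 596 CPM at day 2 and 478 to 489 CPM at day 3. KDR made up most of that sum. CDH5, the endothelial cadherin, was at 1.34 ± 0.310 and 0.218 ± 0.250 CPM and PECAM1 at 0.238 ± 0.0900 and 0.382 ± 0.281 CPM. ERG and LMO2, factors of blood vessels and blood, fell to 0.282 ± 0.101 and 1.85 ± 0.547 CPM. Of 15 endoderm genes 5 were higher and 4 lower, and the summed level fell from between 614 and 878 CPM to between 89.7 and 128 CPM, and most of the day 2 sum was CER1. SOX17, of endoderm and endothelium, fell from 69.9 ± 9.13 to 22.6 ± 5.84 CPM, FOXA2 was not called, HNF4A reached 3.47 ± 0.985 CPM and TTR had no count in the 6 libraries.

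Of 11 amnion and trophoblast genes 8 were higher and 1 lower (median 2.62), a list that includes HAND1 and BMP4, also on the heart lists, and GATA2, also on the endothelial list. Its summed level was 149 to 216 CPM at day 2 and 970 to 1343 CPM at day 3. GATA3, a factor of trophoblast and amnion, rose from 3.18 ± 0.462 to 37.5 ± 4.03 CPM and GABRP, an amnion marker, from 1.13 ± 0.289 to 3.57 ± 1.18 CPM, a call lost with a transcript length offset (edgeR adjusted p = 0.398) and without both replicate 3 libraries (0.114). VTCN1 had no count at day 2 and was called higher at 0.261 ± 0.200 CPM, and KRT7 was not called, at 0.109 ± 0.112 CPM. Of 8 epicardial and pharyngeal genes 3 were higher and 0 lower by edgeR (0 at an unadjusted p under 0.05, 0 by DESeq2), with TCF21 at 0.335, 0 and 0.208 CPM at day 2 and 11.6, 8.34 and 21.0 CPM at day 3. Of 13 neuroectoderm genes 4 were higher and 3 lower, with SOX1 at means of 0.0359 and 0 CPM and PAX6 at 0 and 0.0861 CPM, and 2 were higher without day 2 replicate 1, day 2 replicate 2 or day 3 replicate 3. Of 11 neural crest and surface ectoderm genes 3 were higher and 2 lower, and 1 was lower without replicate 3 of day 2 or any 1 library of day 3. The part that these cell types had in the other changes was not tested.

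DNA replication genes fell together by small amounts: 18 of 24 were lower and 0 higher by edgeR, with a median of -0.54. In the higher direction 0 had an unadjusted p under 0.05 and 0 were called by DESeq2. MCM10, a factor of replication start, was at 61.8, 59.5 and 38.1 CPM at day 2 and 30.7, 30.8 and 25.3 CPM at day 3 (-0.88 ± 0.16). CDT1, which loads the replicative helicase, went from 139.8 ± 34.8 to 75.8 ± 16.4 CPM and PCNA, the sliding clamp, from 194 ± 8.99 to 132 ± 9.39. Between 14 and 16 of the 24 were called lower when 1 library was left out. Of 23 mitosis genes 2 were lower, CCNA2 and AURKA, and 0 higher by edgeR, with 1 higher at an unadjusted p under 0.05 and 1 higher by DESeq2. The 2 lower calls were under the share of all genes. Without day 2 replicate 3 or without day 3 replicate 3 the mitosis list had 4 lower and 1 higher. AURKA (edgeR adjusted p = 0.0152) lost its call without day 3 replicate 1 (0.112). Of 19 G1 cyclins and CDK inhibitors 4 were higher and 6 lower, and 3 were lower without day 3 replicate 2. CDKN1C, the CDK inhibitor p57, rose from 13.8 ± 2.61 to 37.5 ± 4.18 CPM. Of 23 p53 targets 11 were lower and 1 higher, with PMAIP1 at 29.2 ± 9.35 and 8.95 ± 3.04 CPM and BAX at 140.2 ± 30.3 and 62.7 ± 14.1 CPM, and 7 were lower without day 2 replicate 3.

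Among 41 targets of the integrated stress response, the programme that PERK and related kinases start through ATF4, 22 were lower and 5 higher, with a median of -0.56. ASNS, asparagine synthetase, was at 66.3, 61.1 and 83.4 CPM at day 2 and 25.7, 27.5 and 32.0 CPM at day 3 (-1.31 ± 0.15). TRIB3 fell from 12.8 ± 2.87 to 4.05 ± 1.06 CPM and SLC7A5, an amino acid transporter, from 248 ± 49.6 to 82.4 ± 13.2. ATF4 itself was at 282, 313 and 402 CPM and 288, 314 and 400.4 CPM, with a log2 fold change of 0.01 ± 0.18 (edgeR adjusted p = 0.989). DDIT4 and VLDLR rose, to 70.6 ± 15.5 and 49.2 ± 8.21 CPM. Of 24 chaperones and unfolded protein response genes 3 were lower (PDIA4, HYOU1 and DNAJB11) and 2 higher (ATF6 and SEL1L), both under the shares of all genes. HSPA5, the main chaperone of the endoplasmic reticulum, was at 644 ± 31.2 and 643 ± 81.0 CPM. When 1 library was left out, between 1 and 5 were lower and between 0 and 3 higher. Each of these 5 calls was lost without some library (edgeR adjusted p from 0.0613 to 0.387). Those of ATF6, HYOU1, PDIA4 and SEL1L were lost without day 2 replicate 3 or day 3 replicate 1, those of ATF6, DNAJB11, PDIA4 and SEL1L without day 3 replicate 2, and that of DNAJB11 without day 2 replicate 1 or day 3 replicate 3.

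EIF2AK3 (ENSG00000172071.11, GRCh38 chromosome 2, 88556741 to 88627576, minus strand), which encodes PERK, was at 18.9, 18.1 and 10.9 CPM at day 2 and at 27.7, 21.6 and 16.7 CPM at day 3 in wild type. In PERK KO it was at 22.5, 18.6 and 20.9 and 18.2, 16.9 and 16.8 CPM, so gene-level counts show no loss of the transcript in the libraries labelled PERK KO. The wild-type change was 0.46 ± 0.20 (edgeR adjusted p = 0.0718), the PERK KO change -0.26 ± 0.20 (0.368), and the difference of the steps -0.72 ± 0.28 (0.0505). The wild-type change was called without day 2 replicate 1 (0.0407) or day 3 replicate 3 (0.0186). A count per gene cannot show whether the protein is made.

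Genes of glycolysis and hypoxia split, 9 of 28 lower and 7 higher. PDK1, which keeps pyruvate out of mitochondria, was at 413, 401 and 298 CPM at day 2 and 93.9, 93.6 and 82.2 CPM at day 3 (-2.04 ± 0.16). SLC2A1, a glucose transporter, fell from 248 ± 81.8 to 99.0 ± 18.3 CPM and HK1, hexokinase, from 412 ± 94.1 to 146 ± 28.9. VEGFA rose from 43.0 ± 4.88 to 78.2 ± 7.42 CPM. Of 24 cholesterol synthesis genes 10 were lower and 2 higher. Of this list 6 were lower without both replicate 3 libraries, and 4 were higher without day 2 replicate 3. Of 28 respiratory chain genes 1 was higher (ATP5F1A) and 1 lower (CYCS), both under the shares of all genes. Both counts were 0 without day 2 replicate 2, day 3 replicate 2 or day 3 replicate 3. The higher count was also 0 without day 2 replicate 1, and 3 were lower without day 2 replicate 3. Of the 13 genes of the mitochondrial genome 0 were called by edgeR, 0 had an unadjusted p under 0.05 and 0 were called by DESeq2.

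Some of the largest changes lay outside the lists. LZTS1, which encodes a leucine zipper protein and had the third largest fall in CPM, was at 1287, 1283 and 1671 CPM at day 2 and at 11.3, 18.8 and 13.6 CPM at day 3 (-6.60 ± 0.24). LIPG, the endothelial lipase, went from 333, 339 and 349 CPM to 5.81, 9.07 and 5.95 CPM (-5.62 ± 0.18, edgeR adjusted p = 1.71e-20), with libraries of a day close together. NTS, the neuropeptide neurotensin, fell from 384 ± 131 to 11.4 ± 5.43 CPM and CMKLR1, the chemerin receptor, from 42.1 ± 7.49 to 0.615 ± 0.367. IGF2, an imprinted growth factor gene (ENSG00000167244.19, GRCh38 chromosome 11, 2129112 to 2149603, minus strand), was at 4.41, 4.12 and 3.64 CPM at day 2 and at 745, 605 and 857 CPM at day 3 (7.5 ± 0.28). CRB2, a polarity protein, went from 1.22 ± 0.336 to 253 ± 60.6 CPM, INSRR, an insulin receptor relative, from 0.269 ± 0.130 to 64.2 ± 7.86, and HTRA1, a secreted protease, from 3.77 ± 0.729 to 434 ± 96.0. NKX2-6, a relative of NKX2-5 in pharyngeal and atrial precursors, had 2 counts at day 2 and was at 8.60, 11.3 and 15 CPM at day 3, a ratio of 314 (95% counting interval 86.6 to 2598).

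FASN, fatty acid synthase, had the second largest fall in CPM, from 3525, 3686 and 5137 CPM to 1808, 2386 and 2629 CPM (-0.86 ± 0.18). TUBB2B, a tubulin, fell from 1217 ± 345 to 309 ± 38.8 CPM and FSCN1, fascin, an actin bundler, from 2420.2 ± 588 to 1320.1 ± 284. FLNC, the filamin of muscle, rose from 1034 ± 225 to 1945 ± 377 CPM, and MDK, the growth factor midkine, from 438 ± 88.5 to 1224 ± 261. Among the largest fold changes were also CALB2, the calcium-binding protein calretinin, which rose from 0.126 ± 0.0256 to 25 ± 7.62 CPM, OAS1, an antiviral enzyme induced by interferon, which fell from 12.7 ± 1.74 to 0.221 ± 0.0396 CPM, and DCHS2, a protocadherin, which fell from 37.8 ± 13.2 to 0.983 ± 0.145 CPM. PGA3 and PGA4, pepsinogen genes with nearly the same sequence, were both called higher, and reads could be split between them.

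**Figure D3:**
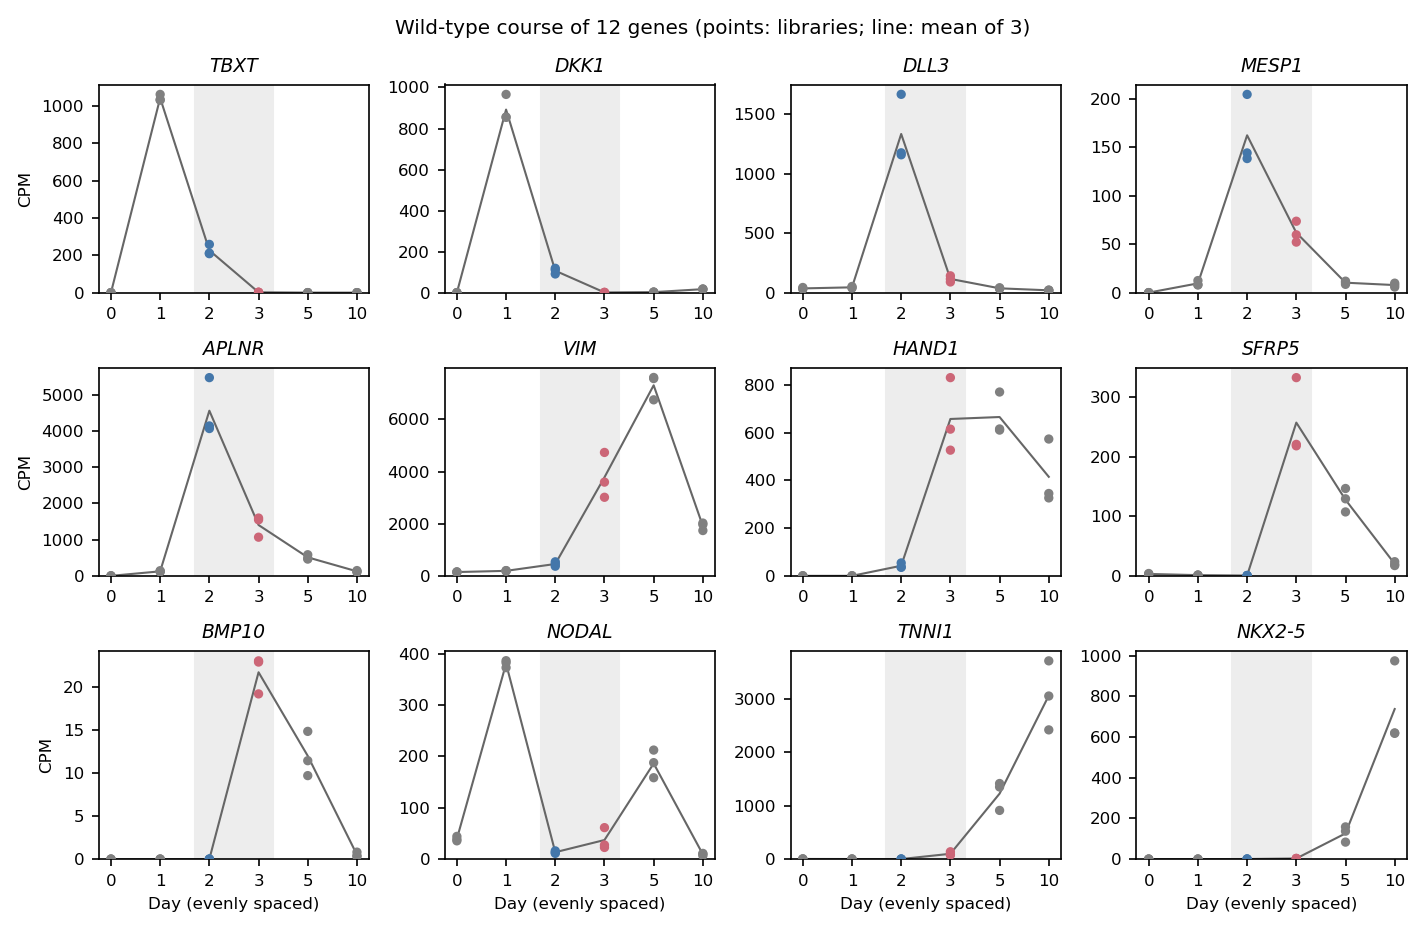
Levels (CPM, linear axes from 0) of 12 genes in all 18 wild-type libraries by day, points for libraries and lines for the mean of 3, days evenly spaced, with days 2 and 3 shaded. TBXT and DKK1 peak at day 1, DLL3, MESP1 and APLNR at day 2, SFRP5 and BMP10 at day 3, VIM at day 5, and TNNI1 and NKX2-5 are highest at day 10.

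Levels at the other days place the step in the course, where neighbouring steps share the day 2 or day 3 libraries. TBXT had been at 1041 ± 17 CPM at day 1 and DKK1 at 892 ± 64.0 CPM. DLL3, MESP1 and APLNR had their highest wild-type mean at day 2 itself, after 44.7 ± 6.77, 9.56 ± 2.53 and 125 ± 15.8 CPM at day 1. SFRP5 and BMP10 were highest at day 3, with 128 ± 19.7 and 12 ± 2.62 CPM at day 5 and 20.1 ± 3.33 and 0.505 ± 0.267 CPM at day 10. HAND1 was at 665 ± 90.7 CPM at day 5. NODAL fell from 380.5 ± 6.96 CPM at day 1 before the rise described above and was at 186 ± 26.9 CPM at day 5. Of the genes that came on at day 3, TNNI1 reached 1227 ± 274 CPM at day 5 and 3065 ± 647 at day 10, and NKX2-5 reached 126 ± 38.6 and 738 ± 205 CPM.

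The same step in PERK KO shares no library with the wild-type one, so the difference between the steps was tested. In PERK KO 4883 genes (24.7%) were called between days 2 and 3, 2674 higher and 2209 lower. The difference of the steps was called for 5736 genes (29%), 2964 (15%) with a PERK KO step above the wild-type step and 2772 (14%) below it. Called in both genotypes and in the same direction were 1364 genes, 21.2% of the wild-type calls and 27.9% of the PERK KO calls. Called in opposite directions were 947. Such genes pass the test of the difference almost by construction, and all 947 did. Of these, 598 fell in wild type and rose in PERK KO and 349 did the reverse. Among the 4130 wild-type calls that were not called in PERK KO, 2482 differed between the genotypes by that test.

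Genes that fell in wild type and rose in PERK KO included DLL1, the NOTCH ligand, which in PERK KO was at 6.47, 7.78 and 8.78 CPM at day 2 and 26.5, 29 and 34.7 CPM at day 3. In wild type it had been at 285, 279 and 370 CPM at day 2. Its steps were -3.09 ± 0.18 in wild type and 1.97 ± 0.18 in PERK KO, a difference of 5.06 ± 0.25 (edgeR adjusted p = 1.57e-15). The genotypes thus started from unlike levels of DLL1, but from similar levels of GAD1, given below. The part of the start, the pace of differentiation and the clones in the differences between steps was not tested. CCND1 was at 158, 176 and 166 and 356, 372 and 373 CPM in PERK KO, a difference of 2.85 ± 0.17. OLFM1, a secreted olfactomedin, SLC4A11, a membrane transporter, and MLPH, melanophilin, did the same, with differences of 4.66 ± 0.25, 4.17 ± 0.23 and 5.38 ± 0.29. LFNG, INHBB and DNMT3B also rose in PERK KO, with differences of 5.17 ± 0.31, 10.05 ± 0.63 and 2.08 ± 0.22. INHBB went from 0.165, 0.0536 and 0 CPM to 1.13, 1.06 and 1.40 CPM in PERK KO, so near 0 at day 2 that its fitted value depends on the prior count.

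Genes that rose in wild type and fell in PERK KO included GAD1, glutamate decarboxylase, at 19.6, 18.7 and 22.1 and 138, 100.3 and 134 CPM in wild type and at 16.8, 18.8 and 19.7 and 3.67, 2.93 and 3.20 CPM in PERK KO. The difference of its steps was -5.12 ± 0.23 (edgeR adjusted p = 3.85e-16). COL2A1 was at 7.90, 7.72 and 8.41 and 2.73, 3.28 and 2.97 CPM in PERK KO, with a difference of -6.22 ± 0.30, and MFAP4, a microfibril protein, PERP, a protein of cell junctions, and RGL1 differed by -4.62 ± 0.24, -2.52 ± 0.15 and -4.91 ± 0.29. NODAL, PDGFRA and WLS also fell in PERK KO, with log2 fold changes of -3.53 ± 0.33, -1.84 ± 0.28 and -2.74 ± 0.29, and their steps differed by -5.00 ± 0.44, -3.97 ± 0.38 and -4.48 ± 0.40.

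**Figure D4:**
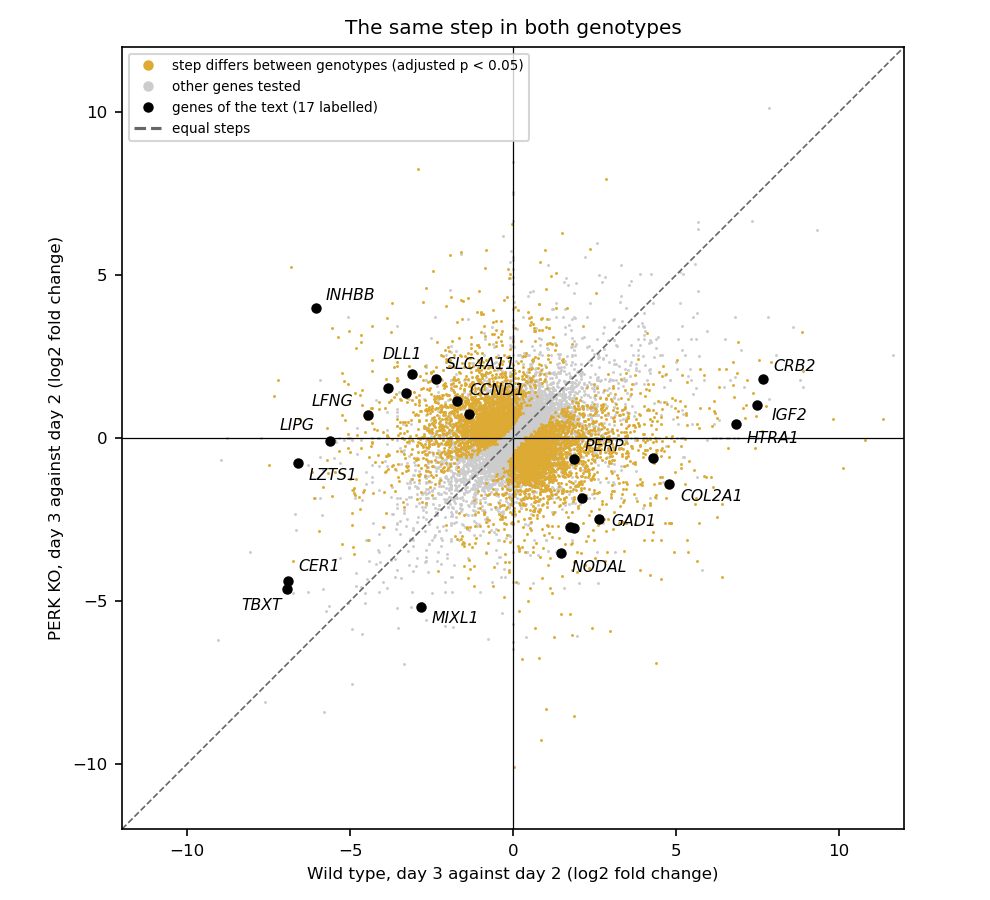
Log2 fold change of each of the 19772 genes from day 2 to day 3 in wild type (horizontal) and in PERK KO (vertical), with the 5736 genes whose steps differ in yellow and 24 genes of the text in black. DLL1, CCND1, SLC4A11, LFNG and INHBB lie at the upper left (lower in wild type, higher in PERK KO), and GAD1, COL2A1, PERP and NODAL at the lower right.

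For other genes the steps differed mainly in size. LZTS1 and LIPG differed by 5.83 ± 0.29 and 5.53 ± 0.23, and the PERK KO step of LIPG was not called (-0.08 ± 0.16). IGF2 and CRB2 rose in PERK KO, with log2 fold changes of 1.00 ± 0.28 and 1.80 ± 0.23, and their steps differed from the wild-type ones by -6.50 ± 0.38 and -5.87 ± 0.35. HTRA1 was not called in PERK KO (0.43 ± 0.21) and differed by -6.41 ± 0.32. TBXT and CER1 fell in both genotypes, and by less in PERK KO, which was lower at day 2 (20.6, 26.9 and 23.7 CPM for TBXT and 194, 249 and 219 CPM for CER1), with differences of 2.30 ± 0.41 and 2.50 ± 0.40. MIXL1 fell further in PERK KO, from 66.1, 88.9 and 80.1 to 1.93, 2.88 and 1.63 CPM, with a difference of -2.36 ± 0.25.

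The shares over all genes for the PERK KO counts by list are 13.5% higher and 11.2% lower. For the difference of the steps they are 15% above the wild-type step and 14% below it. Of 18 streak genes 1 was higher and 14 lower in PERK KO, against 2 and 15 in wild type, and the steps of 15 differed in size or direction, 8 above the wild-type one and 7 below it. In PERK KO 7 of the 22 cardiac transcription factors rose and 2 fell, the latter close to the share of all genes, and 9 had a step below the wild-type one and 3 above it. Of 26 contractile genes 10 were higher in PERK KO, and 12 had a step below and 3 above the wild-type one. Of 24 DNA replication genes 2 were higher and 2 lower in PERK KO, both below the shares of all genes, and 11 had a step above the wild-type one. Of this list 0 had a step below it by edgeR, 0 at an unadjusted p under 0.05 and 0 by DESeq2. Of 30 matrix genes 2 were higher and 10 lower in PERK KO, with 13 steps below and 3 above. The counts of 3 steps above in the cardiac transcription factor, contractile and matrix lists were each under the share of all genes. So were the 1 streak gene and the 2 matrix genes higher in PERK KO.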

How the data were processed

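RNA of 36 libraries was sequenced as 150 bp pairs with a poly(A) kit, per the labels' protocols. The authors deposited RSEM expected counts, TPM and effective lengths per gene, made with STAR and RSEM on GRCh38 (hg38), per the submitters' processing notes; the tools' versions: not given in the sources used here. The 58721 gene IDs all matched GENCODE release 29. The deposited TPM values, which are per transcript length, were used for a level only, and the effective lengths for an offset. RSEM shares reads between similar copies, so the values of such genes are uncertain. The strand setting was not found there.

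Expected counts were rounded (6.53% to 9.43% of values were fractional). Libraries held 14.0 to 25.9 M counts. With edgeR 4.0.16 in R 4.3.3, genes were kept by filterByExpr, scaled by TMM and fitted by quasi-likelihood over all 36 libraries as 12 groups, with 24 residual degrees of freedom. Common dispersion was 0.0349, a biological coefficient of variation of 18.7%. P-values were Benjamini-Hochberg adjusted over 19772 genes. Standard errors were taken as |log2 fold change| over √F. A gene with no count in a group is given as a bound against 3 counts, and 1 to 3 counts as a ratio with an exact 95% interval, both for counting error only.

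In counts simulated for this comparison over 19519 genes, 67, 67 and 66 genes were changed 1.5, 2 and 4-fold. Of these, edgeR recovered 13.4%, 58.2% and 98.5%, with 4 false calls. DESeq2 recovered 22.4%, 67.2% and 98.5%, with 16 false calls (11.3% of its calls). Genes were drawn independently, without a shift shared by a replicate, and far fewer changed than were called in the data. These rates therefore need not hold in the data. Alternatives were DESeq2 1.42.0, other filters and scaling, a length offset, a replicate block, fewer libraries and leaving out each library. Genes named were 20 called genes a direction by size of change, at 5 CPM or more and without overlap, the 10 largest CPM differences in each direction, the 15 smallest p of the difference between genotypes, members of 35 lists, and EIF2AK3. Some genes that the rule names are not reported here. The members and lists were chosen with earlier results of these data known. Replicate numbers did not pair all 3 libraries of the days (same-number correlations 0.659, 0.0711 and 0.823). Day 2 replicate 3 did go with day 3 replicate 3, against -0.820 and -0.107 with day 3 replicates 1 and 2. The design text lists other sampling days than the labels, and the labels were used. The other days of PERK KO enter only the fit.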

Additional observations from a re-analysis of the deposited data

Results flagged for a closer look

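The step from day 2 to day 3 differed between PERK KO and wild type for 5736 genes by edgeR's test of the difference itself, and the values here are the PERK KO step minus the wild-type step on the log2 scale. The difference was 10.05 for INHBB, 5.83 for LZTS1, 5.53 for LIPG, 5.38 for MLPH, 5.17 for LFNG and 5.06 for DLL1. It was 4.66 for OLFM1, 4.17 for SLC4A11, 2.85 for CCND1, 2.50 for CER1, 2.30 for TBXT and 2.08 for DNMT3B. Differences below 0 were -6.50 for IGF2, -6.41 for HTRA1, -6.22 for COL2A1, -5.87 for CRB2, -5.12 for GAD1 and -5.00 for NODAL. They were -4.91 for RGL1, -4.62 for MFAP4, -4.48 for WLS, -3.97 for PDGFRA, -2.52 for PERP and -2.36 for MIXL1. For INHBB the PERK KO counts at day 2 were near 0, so its value depends on the prior count.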

How the results depend on the processing

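The count of 6441 called genes lay between 5589 and 6772 under DESeq2, RLE scaling, other filters, a length offset, the counts of the sample files and the 18 wild-type libraries alone. Fitted to only the 6 compared libraries, 3633 genes were called, 1924 higher and 1709 lower. This fit takes its spread from those libraries alone, with 4 residual degrees of freedom. That fit also moved 17 of 70 counts by list and direction by over 1.5 times, and 13 of 228 genes named in the text lost their call. Leaving out each library in turn gave 5610 to 6593, and the genotype difference, 5736 genes, gave 4487 to 6748. All 24 genotype differences named kept their direction and call under each alternative run. Many of these genes were picked for the smallest p of this difference in the same libraries, so this says little about other genes. Of all 5736 genotype differences called, 75.5% were kept in the same direction without day 3 replicate 1, the lowest share. With genes differing by at least 2 on the log2 scale, day 2 replicate 3 lay at 0.386 on the time axis and still farthest along of its day.

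With the replicate number as a block, 6508 genes were called and 5862 genotype differences. In the 6 libraries alone the block gave 7727 calls. The numbers did not pair all libraries of the days. Day 2 replicate 2 correlated best with day 3 replicate 1 (0.713), but day 2 replicate 3 with day 3 replicate 3 (0.823). Of the 240 genes named in the text, the block over all libraries changed no call of the step. No named gene reversed under any alternative run. Genes changed 1.5-fold or 2-fold were often missed in simulated counts at this depth and n, so a gene not called may still differ.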
